A study of Mus musculus with 6 samples.

Results

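Tcf7, Lef1, Bach2, Id3, Foxo1, Foxp1, Bcl6 and Dapl1 are genes that resting CD8+ T cells carry at high levels or that keep such cells long-lived, and they were followed here in activated CD8+ T cells (CD8-TC) of WT and Runx3-/- mice. The 8 genes were chosen with earlier results of these data known. They were read by name from a table of 35399 array rows, in which 19938 genes had at least 1 row paired with exactly 1 gene symbol. A row was found for 7 of the 8, with 1 row each, and no row was paired with Tcf7, which is therefore named but not analysed here. Of the 19938 genes, 10021 reached the median of the whole table (4.26 on the log2 scale) on at least 1 array and were tested, and all 7 measured genes were among them.

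Total RNA came from 6 ICR mice labelled male and aged 6 weeks, 3 with the genotype Runx3 +/+ (WT) and 3 Runx3 -/- (knockout, KO). Each mouse's cells went on 1 array. Splenic cells picked up with beads against CD8 were stimulated through the T cell receptor with anti-CD3 and anti-CD28 for 2 days and then kept in IL-2 at 100 units per ml for 4 days, so both groups had been activated and none was a resting sample. The KO cells alone were also sorted, once to take out CD8+ dendritic cells carrying CD11c and once, after culture, to take out CD4+ cells without CD8, so this extra handling cannot be told apart from genotype. Runx3 was missing from the germline and not from T cells alone, and in whole cultures fewer cells of one kind cannot be told apart from less RNA per cell.

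Resting naive and central memory T cells owe their long life and capacity to renew to a small set of DNA-binding proteins. Tcf7 and its relative Lef1 bind the same DNA letters and can act with beta-catenin; Foxo1, when growth signals are weak, enters the nucleus and drives the receptors for homing and for IL-7; Foxp1 keeps naive cells quiet; Bach2 and Bcl6 are repressors that hold back effector genes; and Id3 blocks E proteins in cells on the way to memory. T cell receptor and IL-2 signals lower many of these genes as effector cells form. Dapl1, a small protein named after death-associated protein, is not a DNA-binding factor, and its transcript is a known mark of naive and early memory CD8+ cells.

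Checks on the labels come first. Runx3, the targeted gene, stood at 8.77, 8.26 and 9.16 on the WT arrays and at 8.91, 9.11 and 9.27 on the arrays labelled KO, with a KO minus WT difference of 0.37 (log2, SE 0.24, adjusted p = 0.521), so its row did not tell the genotypes apart. Which stretch of Runx3 is missing is not given in the labels, and the arrays are called KO-labelled below. Xist, which coats the silenced X in females, stood at 10.6 on WT1 and between 3.31 and 3.40 on the other 5 arrays, against a label of male for all mice. The Y-linked genes were low on WT1 alone. Eif2s3y was at 3.93 there and 9.24 to 9.39 elsewhere, Uty at 3.91 and 7.10 to 8.27, and Kdm5d at 3.68 and 5.92 to 7.02. WT1 thus did not match its label, and the part of this in the results was not tested. The leading principal component held 49.6% of the variance among tested genes and ran from WT2 at one end, through WT1, WT3, KO1 and KO3, to KO2 at the other, so WT2 and KO2 stood apart within their groups. The 9 measured CD8 T cell markers were at or above the table's median on every array. Their mean level was 10.2 to 10.6 on WT and 10.5 to 10.8 on KO-labelled arrays. The B cell list (7 measured markers) averaged 3.73 to 3.85 on WT and 3.66 to 3.84 on KO-labelled arrays, and the dendritic cell list (8 markers) 3.41 to 3.61 and 3.46 to 3.76. Of the 8 dendritic cell markers 7 were below the table's median on every array, Itgax, Flt3 and Xcr1 among them. The exception was Cd74, the chaperone of class II molecules, at 3.49, 4.13 and 3.89 on WT and 5.74, 4.24 and 3.95 on KO-labelled arrays, above the median on KO1 alone (difference 0.80, adjusted p = 0.463). For the myeloid list (7 markers) the ranges were 4.00 to 4.10 and 3.81 to 3.98. The helper T cell list (4 markers) averaged 5.14 to 5.43 on WT and 5.35 to 5.89 on KO-labelled arrays, and the NK cell list (4 markers) 3.81 to 4.26 and 3.55 to 3.67. Single markers differed more than these averages. Cd79b of the B cell list was lower on KO-labelled arrays (-0.93, adjusted p = 0.148), as was Klrb1c of the NK cell list (-1.56, adjusted p = 0.169). Cd5 of the CD8 list was higher (1.12, adjusted p = 0.216), as was Cd4 of the helper list, given below. Cd79b, Klrb1c, Cd5 and Cd4 each had groups apart and passed the study's threshold described below. Other markers of the same lists did not all go the same way. The other 6 B cell markers were below the table's median on every array, with differences from -0.02 (Cd22) to 0.29 (Cd79a). The other CD8 markers had differences from -0.30 (Cd8a) to 0.56 (Cd2). The part of these shifts in the results was not tested.

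The promoter of Dapl1 is printed because this gene differed most between the groups, and a stretch of the Foxp1 promoter because it holds one of the few sites among these genes with letters that RUNX proteins recognise. RefSeq promoter sequences (build GRCm38.p6, the 250 bases before each start) were found for all 8 genes, with 15 windows in all. The search for RUNX letters took TGTGGT on both strands, its variant ending in C (TGTGGC), the variant with a central C (TGCGGT), and the variant with both changes (TGCGGC). Such letters were present in the windows of 2 of the 8 genes, Foxp1 and Tcf7, whereas 41.3% of all 27025 genes in the RefSeq table had a window with them. The letters TATAAA, searched on the gene's own strand and chosen once the Dapl1 values had been seen, were in 1 of the 8 genes, Dapl1, and in 8.94% of all genes. In the lines that follow, both written 5′ to 3′ on the strand of the gene, capitals mark TATAAA in Dapl1 (chr2:59484403-59484652, plus strand, the first T 29 bases before the start) and ACCGCA, the reverse complement of TGCGGT, in Foxp1 (chr6:99521019-99521078, minus strand, the first A 58 bases before the start, in 1 of 3 Foxp1 windows).
Dapl1: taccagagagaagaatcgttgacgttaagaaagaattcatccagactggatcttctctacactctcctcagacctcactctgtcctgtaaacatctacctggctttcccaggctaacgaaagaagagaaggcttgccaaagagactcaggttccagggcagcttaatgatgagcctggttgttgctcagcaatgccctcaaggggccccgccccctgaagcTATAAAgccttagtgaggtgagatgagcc
Foxp1: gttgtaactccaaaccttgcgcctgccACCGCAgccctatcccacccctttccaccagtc
Dapl1 had none of the searched RUNX letters in its window, which says nothing about sites elsewhere.

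Dapl1 was the only one of the 7 genes that rose at an adjusted p of 0.05. It stood at 5.71, 5.76 and 5.21 on the WT arrays and at 9.80, 9.18 and 9.21 on the KO-labelled arrays. All 3 KO-labelled values lay above all WT values, with 3.42 log2 units between the nearest pair. The group means were 5.56 ± 0.31 (SD, n = 3) and 9.40 ± 0.35 (SD, n = 3), a difference of 3.84 (SE 0.24, adjusted p = 0.00273, limma), or 14.3-fold (95% interval 9.70 to 21.0). This was the second largest rise and the third smallest p among the 10021 tested genes, of which 27 (0.269%) rose and 36 (0.359%) fell past that threshold. With any 1 array left out the Dapl1 difference was 3.63 to 3.94, with adjusted p between 0.00664 and 0.0159, and without both WT2 and KO2 it was 4.05 (adjusted p = 0.0145). The call was lost in an unmoderated linear model (adjusted p = 0.200) and with the replicate number as a block (adjusted p = 0.0634). No other gene of the 7 came near it, the next largest difference being 1.19.

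**Figure D1:**
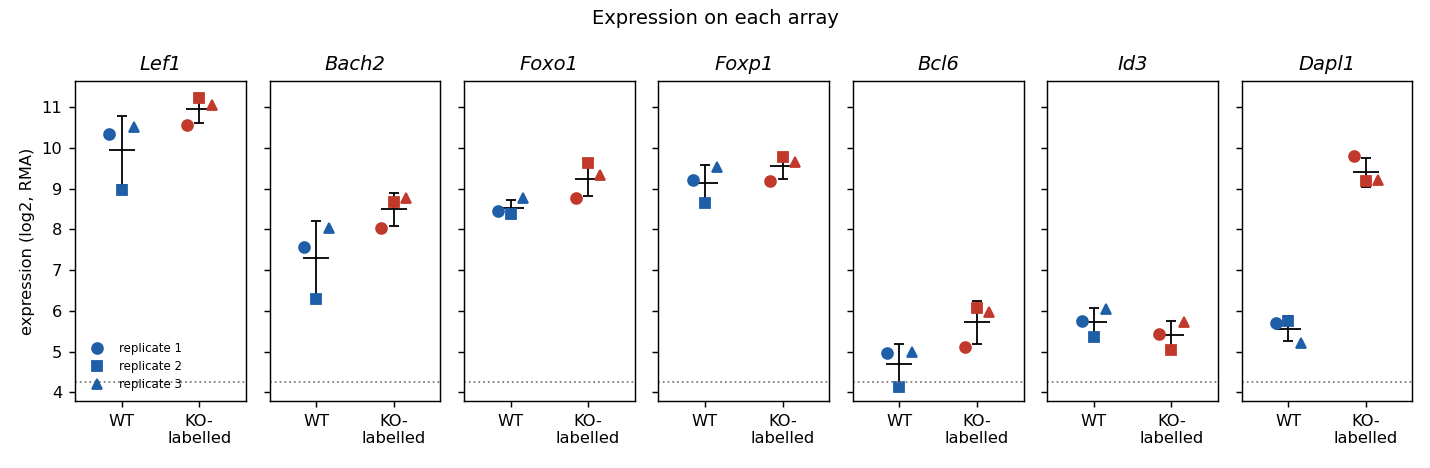
Expression (log2, RMA) of the 7 measured genes on the 3 WT (blue) and 3 KO-labelled (red) arrays; symbols mark replicates, bars the group mean ± SD, and the dotted line the table's median of 4.26. Dapl1 is apart by 3.42 log2 units, whereas the gap between the groups is 0.06 for Lef1, 0.02 for Foxo1 and 0.12 for Bcl6, and the groups overlap for Bach2, Foxp1 and Id3.

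A weaker threshold, used by the study, asks for a change of at least 1.5-fold together with a nominal, unadjusted p of 0.05; the study further asked for signal above background on 1 array or more, for which the table's median stands in here. By it 5 of the 7 genes were higher on the KO-labelled arrays (Dapl1, Bach2, Bcl6, Lef1 and Foxo1) and none was lower, against 398 higher (3.97%) and 434 lower (4.33%) of all tested genes. Groups that did not overlap, with KO-labelled values higher, were seen in 4 of the 7 and, with KO-labelled values lower, in none, against 11.6% and 10.9% of all tested genes. The difference was above 0 for 6 of the 7, against 48.0% of all tested genes, and its median was 1.01 against -0.01 over all tested genes. Since the 7 genes and the lists below were chosen with earlier results of these data known, the shares beside them are a description only. Apart from Dapl1 these calls changed with the arrays used. The count of 5 fell to 1, Dapl1 alone, when WT2, KO2 or KO3 was left out, and also without WT2 and KO2 together. It was 4 without WT1, Foxo1 being lost, and 5 without WT3 or KO1. Of all tested genes, 246 of 9920 were higher by this threshold without WT2, 464 of 9864 without KO2 and 276 of 9982 without KO3. Without WT2 and KO2 together 518 of 9732 were. Without KO3 the differences were 0.95 for Lef1, 1.04 for Bach2, 0.67 for Foxo1 and 0.89 for Bcl6. With all arrays they were 1.01, 1.19, 0.72 and 1.02. Fewer arrays also leave less power, and the part of this in the lost calls was not tested.

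Among the DNA-binding factors, Lef1, the relative of Tcf7, was bright in both groups. Its values were 10.33, 8.97 and 10.51 on the WT arrays and 10.57, 11.21 and 11.06 on the KO-labelled arrays. The KO-labelled values were all higher, yet KO1 was above WT3 by only 0.06, and most of the spread in WT came from WT2. The difference was 1.01 (SE 0.41, 95% interval 0.03 to 1.99, adjusted p = 0.341), a 2.01-fold change. It was 0.52 without WT2 and 0.39 without WT2 and KO2. After quantile normalization of the columns the groups overlapped.

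Bach2, a repressor that restrains effector and terminal differentiation, had the widest spread among the WT arrays. It stood at 7.58, 6.30 and 8.03 on WT and at 8.02, 8.66 and 8.78 on KO-labelled arrays. KO1 lay just under WT3, so the groups overlapped. The difference was 1.19 (SE 0.45, 95% interval 0.13 to 2.25, adjusted p = 0.310). It was 0.69 without WT2 and 0.60 without WT2 and KO2. Bcl6, a repressor that opposes Prdm1 and favours memory and follicular helper fates, was dim. Its values were 4.97, 4.14 and 4.99 on WT, with WT2 under the table's median, and 5.11, 6.07 and 5.98 on KO-labelled arrays. KO2 and KO3 were about 1 log2 unit above WT1 and WT3, and KO1 was 0.12 above WT3. The difference was 1.02 (SE 0.34, 95% interval 0.22 to 1.82, adjusted p = 0.268), 0.74 without WT2 and 0.56 without WT2 and KO2.

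Both forkhead genes were bright. Foxo1, the factor held out of the nucleus by Akt, had the smallest spread of the 7 genes among the WT arrays and stood at 8.44, 8.39 and 8.76 on WT and at 8.78, 9.62 and 9.34 on KO-labelled arrays. KO1 exceeded WT3 by 0.02, and KO2 and KO3 were well above every WT array. The difference was 0.72 (SE 0.24, 95% interval 0.15 to 1.28, adjusted p = 0.272), or 1.64-fold. It was 0.64 without WT2, 0.53 without KO2 and 0.45 without both. Foxp1, which keeps naive cells quiescent, stood at 9.21, 8.65 and 9.52 on WT and at 9.20, 9.79 and 9.65 on KO-labelled arrays. WT1, WT3 and KO1 were mixed, and the groups overlapped. The difference of 0.41 (SE 0.26, 95% interval -0.21 to 1.04, adjusted p = 0.506) did not pass either threshold and was 0.06 without WT2 and KO2.

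Id3, the E protein inhibitor of naive cells and memory precursors, was the one measured gene below 0. It stood at 5.76, 5.35 and 6.05 on WT and at 5.44, 5.03 and 5.73 on KO-labelled arrays. The groups overlapped, with KO2 lowest and WT3 highest. The difference was -0.32 (SE 0.25, 95% interval -0.91 to 0.26, adjusted p = 0.578), and it stayed below 0 with each array left out, from -0.51 without WT2, when the groups no longer overlapped, to -0.14 without KO2.

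**Figure D2:**
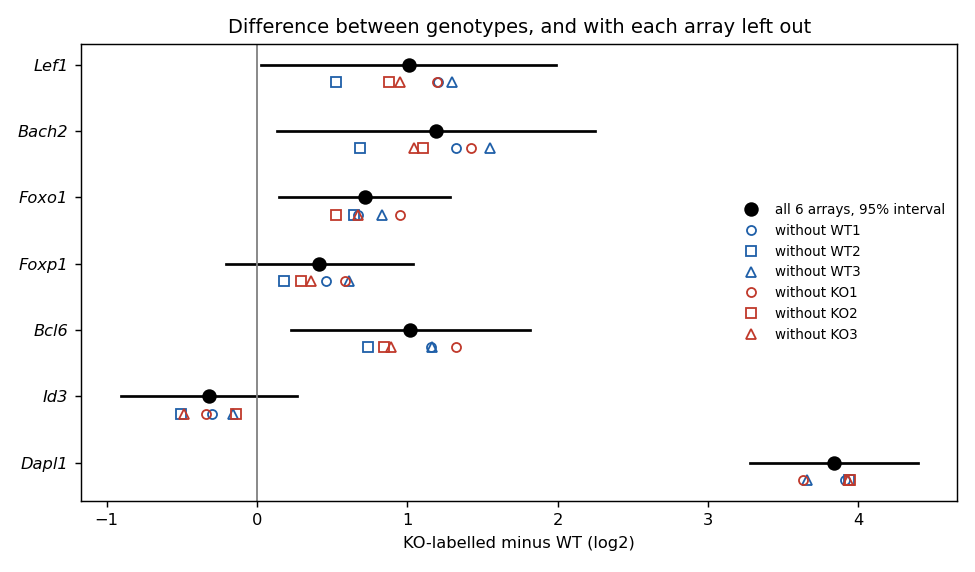
KO-labelled minus WT difference (log2) of each measured gene with all 6 arrays (filled point, 95% interval) and with each array left out (open symbols, blue for WT and red for KO arrays). Leaving out WT2 gives the lowest value for Lef1 (0.52), Bach2 (0.69), Foxp1 (0.18) and Bcl6 (0.74), whereas Dapl1 stays between 3.63 and 3.94.

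Several of the genes followed a shared order of arrays. Lef1, Foxo1 and Bcl6 ranked the arrays as WT2, WT1, WT3, KO1, KO3 and KO2 from low to high, the same order as the leading principal component of all tested genes. Bach2 and Foxp1 were also lowest on WT2, and Id3 and Dapl1 followed other orders. Averaged over the 6 genes without Dapl1, the deviation from the gene's mean was -0.17, -0.92 and 0.09 on the WT arrays and -0.04, 0.51 and 0.54 on the KO-labelled arrays. WT3 thus lay above KO1, and the groups were carried apart by WT2 at the low end and by KO2 and KO3 at the high end. KO2 was also the array with the lowest cell cycle genes, as given below, and the part of this in the result was not tested.

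Profiles were compared by the root mean square distance between mean-centred values over the 6 arrays, a description with no test. Esyt2 (0.09), Dusp10 (0.09), a phosphatase of MAP kinases, and Macf1 (0.11) were the closest to Lef1. Bach2 was closest to Lef1 itself (0.15), then Utrn (0.16) and Kmt2a (0.17), a histone methyltransferase. Foxo1 was closest to Prkd2 (0.07), a protein kinase D, Krba1 (0.10) and Zfp846 (0.10). Bcl6 was closest to Rnf145 (0.11), Clcf1 (0.15), a cytokine of the gp130 group, and Pgap1 (0.15). For Dapl1 the nearest genes were farther away, at 0.42 for Tspan32, a tetraspanin of blood cells, 0.42 for Cd81, another tetraspanin, and 0.53 for Runx1, the relative of Runx3. Their differences were 3.55, 4.17 and 3.17, beside 3.84 for Dapl1. The values were centred but not scaled, so genes picked as near were bound to have differences of like size.

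**Figure D3:**
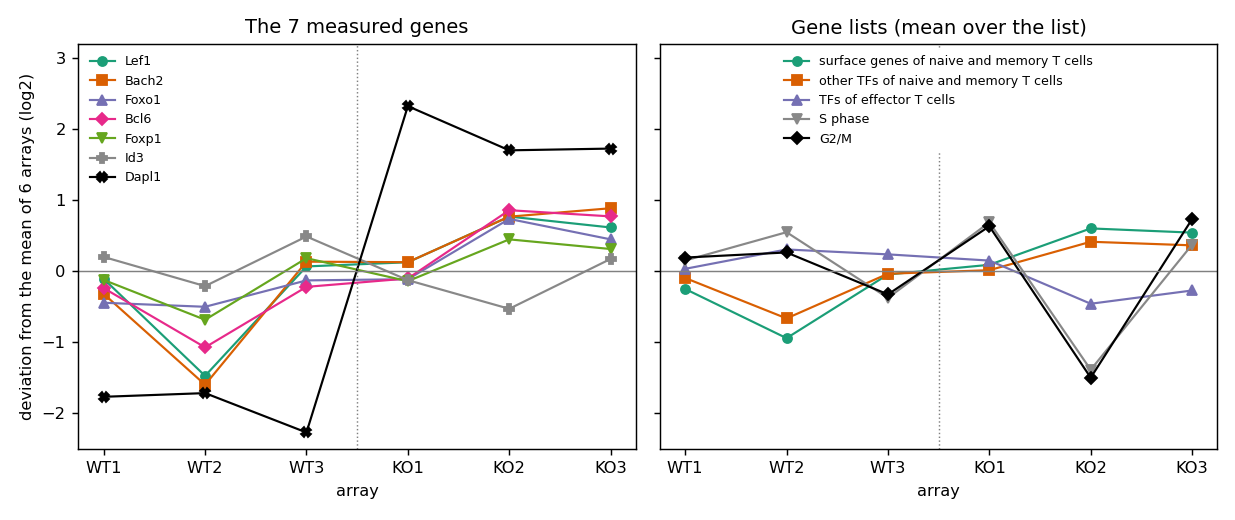
Deviation from the mean of the 6 arrays (log2) for the 7 measured genes (left) and for the mean of 5 gene lists (right); lines only connect the values of 1 gene or list, since arrays of a group have no order. Dapl1 is below its mean on all WT and above it on all KO-labelled arrays, whereas Lef1, Bach2, Bcl6 and both naive and memory lists are lowest on WT2; the S phase and G2/M lists drop on KO2, to -1.39 and -1.50.

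Of 14 family relatives 7 were tested, none passed either threshold and none had groups apart, with a median difference of -0.06. Id2, the relative of Id3 that favours effector cells, had the smallest p, at -1.05 (SE 0.46, adjusted p = 0.365). Of 19 partner proteins, 12 were tested and their median difference was 0.09. By the study's threshold 1 was higher, Bcor, the corepressor bound by Bcl6, at 0.66 (adjusted p = 0.268). None was lower, and of all tested genes 3.97% were higher and 4.33% lower by it. Tle4, a corepressor of Tcf and Lef proteins (0.47, adjusted p = 0.342), and Bcl9l, which links beta-catenin to its coactivators (0.45, adjusted p = 0.371), also had groups apart with KO-labelled values higher. Such separation was thus seen in 3 partners, against 11.6% of all tested genes. Bcor fell short of the study's threshold without WT2 (0.47) or KO3 (0.53), and Id2 passed it, as lower, without WT1 or KO1 (-1.43 in both cases).

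Of 15 kinases and phosphatases that act upstream of Foxo1, 13 were tested, with a median difference of 0.07. By the study's threshold 1 was higher and none was lower, against 3.97% and 4.33% of all tested genes. Groups were apart with KO-labelled values higher in 2 and lower in 2, against 11.6% and 10.9% of all tested genes. Tsc1, a brake on mTOR, was at 0.59 (adjusted p = 0.239). Pdpk1, which activates Akt, was at 0.47 (adjusted p = 0.312), with groups apart like Tsc1. Akt1, which phosphorylates Foxo1, was at -0.44 (adjusted p = 0.357) with KO-labelled values lower throughout, and so was Inpp5d, a lipid phosphatase named after its values were seen, at -0.31 (adjusted p = 0.391). Tsc1 fell short of the study's threshold without WT2 (0.47), KO2 (0.55) or KO3 (0.51), and Rptor, a subunit of the mTOR complex named after its values were seen, passed it as lower without WT2 (-1.05, against -0.69 with all arrays).

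Of 15 surface genes of naive and memory T cells, several of them known Foxo1 targets, 13 were tested. All 13 had a difference above 0, 5 passed the study's threshold as higher and none as lower, 8 had groups apart, and the median was 0.78. Over all tested genes 48.0% were above 0, 3.97% passed as higher, and 11.6% had groups apart with KO-labelled values higher. With all 6 arrays no gene of this list passed the adjusted threshold. Il7r, the IL-7 receptor that keeps resting T cells alive, had values of 7.90, 7.59 and 9.41 on WT and 10.52, 11.06 and 11.03 on KO-labelled arrays. Every KO-labelled array was more than 1 log2 unit above every WT array, and the difference was 2.57 (SE 0.46, adjusted p = 0.0718). It was 3.12 without WT3, the highest WT array for this gene (adjusted p = 0.0203). It was 2.37 without WT1 (adjusted p = 0.222) and 2.12 without WT2 and KO2 (adjusted p = 0.158). Cxcr3, a chemokine receptor of memory and effector cells, was at 0.86 (adjusted p = 0.145). S1pr1, the receptor for leaving lymph nodes, was at 1.32 (adjusted p = 0.147). The other genes past the study's threshold, named after their values were seen, were Slamf6, a marker of self-renewing T cells (1.07, adjusted p = 0.312), and Igf1r, a growth factor receptor (1.99-fold, adjusted p = 0.298). The number past this threshold was 3 without WT2 and KO2 and 4 to 7 with 1 array left out.

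Of 12 other transcription factors of naive and memory T cells, 10 were tested. All 10 differences were above 0, with a median of 0.70, 6 passed the study's threshold as higher with groups apart, and none passed the adjusted one. Of all tested genes 48.0% were above 0, 3.97% passed the study's threshold as higher and 11.6% had groups apart with KO-labelled values higher. Gata3, which is needed for T cell maintenance and drives helper genes, was at 1.06 (adjusted p = 0.176). Tox, a nuclear factor of T cell development and of chronically stimulated cells, was at 1.12 (adjusted p = 0.197). Ets1, a factor of resting lymphocytes, was at 0.75 (adjusted p = 0.245). Here too the count changed with the arrays used, with 2 left without WT2, 3 without KO2 and 2 without both. Cd4, a helper marker, was higher by 0.95 (adjusted p = 0.250) on the KO-labelled arrays, with Zbtb7b at 0.64 (adjusted p = 0.342) and Foxp3 at -0.32 (adjusted p = 0.764), and their part in these differences was not tested.

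Feedback targets of Tcf and beta-catenin were mostly dim, with 3 of 7 tested. Axin2, the best known of them, stood at 4.33, 4.45 and 4.78 on WT and at 5.30, 5.56 and 6.03 on KO-labelled arrays. The groups did not overlap, at a difference of 1.11 (SE 0.22, adjusted p = 0.105). Znrf3, a ligase that removes Wnt receptors, was at 0.85 (adjusted p = 0.292), and Rnf43, a ligase of the same kind, at -0.38 (adjusted p = 0.389). The first 2 passed the study's threshold as higher and none as lower, against 3.97% and 4.33% of all tested genes. The median was 0.85. Axin2 kept that call with each array left out, whereas Znrf3 lost it without WT2 (0.54), KO2 (0.67) or KO3 (0.87). Of 6 follicular helper genes that go with Bcl6, 4 were tested, with a median of -0.02. Btla, an inhibitory receptor, stood at 6.73, 6.68 and 6.92 on WT and at 7.83, 7.76 and 7.42 on KO-labelled arrays. Its difference was 0.90 (SE 0.16, adjusted p = 0.0748). It was the 1 gene of the list past the study's threshold, against the same 3.97% of all tested genes. Pdcd1, another inhibitory receptor, was at -0.42 with KO-labelled values lower (adjusted p = 0.419), and Sh2d1a (-0.07, adjusted p = 0.947) and Icos (0.02, adjusted p = 0.972) overlapped.

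Of 13 tested transcription factors of effector T cells, 4 passed the study's threshold as lower and none as higher, against 4.33% and 3.97% of all tested genes. The median difference was -0.15. Xbp1, a factor of secretory cells, was at -0.73 (adjusted p = 0.208). Irf4, which scales with receptor signal strength, was at -1.02 (adjusted p = 0.256). It passed the adjusted threshold without KO1, its highest KO-labelled array (-1.40, adjusted p = 0.0494). It was at -0.66 without WT2 and KO2 (adjusted p = 0.415). Nfil3, a leucine zipper factor, was at -0.97 (adjusted p = 0.262). Eomes, a T-box factor of effector and memory CD8+ cells named after its values were seen, was at -1.76 (adjusted p = 0.331), with KO3 far below the rest. These 4 had groups apart, against 10.9% of all tested genes with KO-labelled values lower throughout. The number of lower genes was 1 without WT2, 2 without WT3 and 1 without WT2 and KO2. The number of higher genes was 1 without WT3, 1 without KO2 and 1 without WT2 and KO2. In the last case the higher gene was Tbx21, named after its values were seen. Its difference there was 0.79 with groups apart, against 0.34 with overlapping groups when all arrays were used. Groups come apart more easily with fewer arrays, so this separation is not comparable with that over all arrays. With all arrays Stat4, also named after its values were seen, was the 1 gene with groups apart and KO-labelled values higher (0.49, adjusted p = 0.305). The share of all tested genes was 11.6%.

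**Figure D4:**
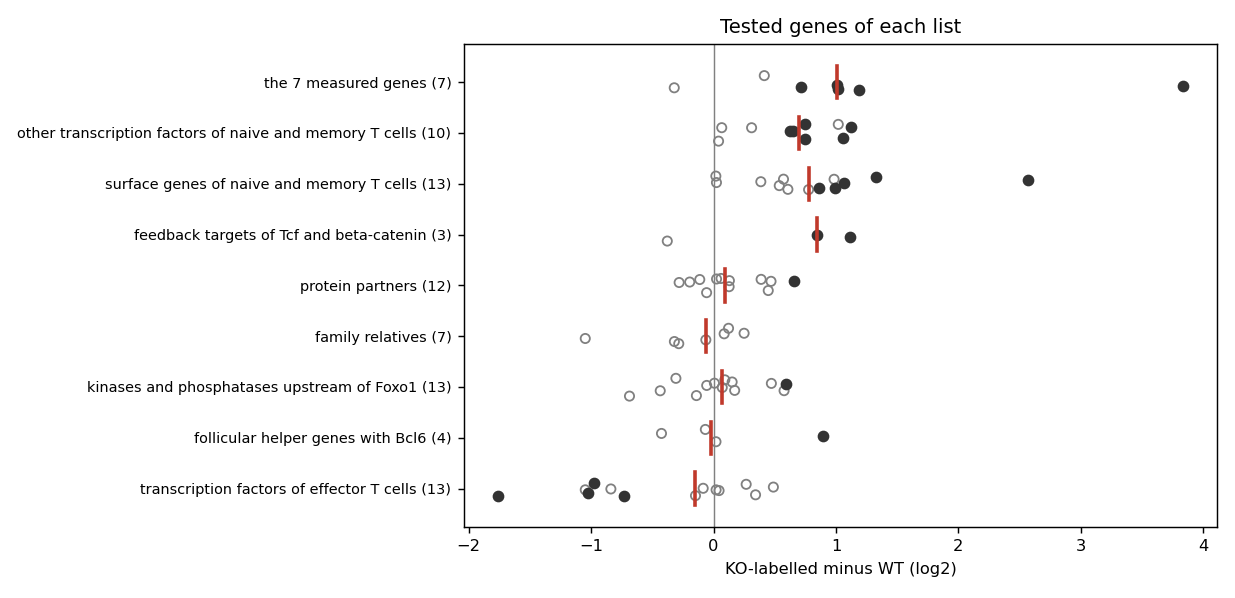
KO-labelled minus WT difference (log2) of every tested gene in 9 lists; filled points passed the study's threshold, open points did not, red lines are medians, and the number tested is in parentheses. The medians are 1.01 for the 7 measured genes, 0.70 and 0.78 for the other naive and memory lists and -0.15 for the effector factors.

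With all 6 arrays, none of 14 S phase genes or 13 G2/M genes passed either threshold, with a median of -0.17 in both lists. Chaf1b, a histone chaperone, had the smallest p of the S phase list (-0.64, adjusted p = 0.551), and Top2a, topoisomerase of mitotic chromosomes, that of the G2/M list (0.36, adjusted p = 0.744). The G2/M list deviated by 0.19, 0.26 and -0.33 on the WT arrays and by 0.63, -1.50 and 0.73 on the KO-labelled arrays, so KO2 stood far below the rest and KO1 and KO3 above it. That no gene passed rested on KO2. Without it 7 G2/M genes were higher on KO-labelled arrays by the study's threshold (median 0.67), against 464 of 9864 tested genes. Without WT2 and KO2, 11 G2/M genes (median 0.72) and 6 S phase genes (median 0.65) were higher, against 518 of 9732 tested genes. None of these cell cycle genes passed the adjusted threshold. Of all study calls 47.8% were higher with all arrays, 60.6% without KO2 and 58.2% without both. With each array's mean G2/M level entered in the fit, Dapl1 kept its call (adjusted p = 0.00329), and no other of the 7 genes passed the adjusted threshold.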

How the data were processed

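The authors processed the Affymetrix mouse gene ST 1.0 arrays in Partek with GC-corrected RMA (background subtraction, quantile normalization, 1 summary per row). They deposited log2 intensities, 1 column for each array, without detection calls. Software versions, the annotation, and slide or scan dates were not given in the sources used here. The number of arrays limits the precision.

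Each gene was read from its brightest row on average among rows paired with 1 symbol; 11989 rows were unnamed and 1621 had several symbols. Genes whose highest value was under 4.26, the table's median, were not tested. WT and KO-labelled arrays (individual mice) were compared with limma 3.58.1 in R 4.3.3 (lmFit, eBayes, two-sided, no covariate), with Benjamini-Hochberg adjustment over all 10021 tested genes; SE are moderated. The fit was tested on simulated data. Replicate numbers are not taken to pair arrays. Figures used matplotlib 3.10.9. The genes followed and all lists were chosen with earlier results of these data known. Named from each list are genes past the adjusted threshold and up to 3 with the smallest p (every tested gene where at most 4 were tested, 1 gene where none passed a threshold), and the 3 nearest profiles. Alternatives were the filter, normalization, row choice, variance model, replicate block, array weights, a G2/M covariate and arrays left out.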

Additional observations from a re-analysis of the deposited data

How the results depend on the processing

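The differences of all 7 measured genes kept their direction in all 19 alternatives. The filter, row choice, variance model and replicate block leave the difference of these genes unchanged, so its direction could not turn there. Only normalization, array weights, the G2/M covariate and arrays left out could turn it. Dapl1 passed the adjusted threshold in 17 of them, not with the replicate number as a block (adjusted p = 0.0634) nor in an unmoderated linear model (adjusted p = 0.200), which left 0 of the 7 genes past it; with 1 array left out the count was 1 throughout. No other measured gene passed it in any of the alternatives. The number of the 7 past the study's threshold was 1 in the unmoderated model and 1 without WT2 and KO2, and 1 to 5 with 1 array left out. Groups were apart in 2 after quantile normalization (Dapl1 and Bcl6), in 5 after median normalization and in 4 to 6 with 1 array left out. Leaving out an array cannot make separate groups overlap, so the last count could only stay or rise. The share of all tested genes with groups apart was not computed for these alternatives. These counts therefore have no background beside them, and groups come apart more easily with fewer arrays. Of all tested genes, those past the adjusted threshold went from 63 to 36 without the filter, 1 with the replicate block, 0 in the unmoderated model, 547 with array weights and 9 (without KO3) to 67 (without KO1) with 1 array left out; those past the study's threshold from 832 to 1707 with every row, 508 unmoderated and 652 (without WT2) to 1257 (without KO1).

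Higher surface genes numbered 3 unmoderated, 3 with array weights, 3 without WT2 and KO2 and 4 to 7 with 1 array left out. Higher naive and memory factors numbered 3 with the replicate block, 3 unmoderated, 3 with array weights, 2 without WT2 and KO2 and 2 to 6 with 1 array left out. Lower effector factors numbered 1 unmoderated, 1 without WT2 and KO2 and 1 to 5 with 1 array left out. Family relatives numbered 1 after quantile normalization and 0 to 1 with 1 array left out. Partners numbered 0 after quantile normalization, 0 unmoderated, 0 without WT2 and KO2 and 0 to 2 with 1 array left out, genes upstream of Foxo1 0 to 3 and follicular helper genes 1 to 2. Feedback targets numbered 1 with the replicate block, 1 unmoderated, 1 without WT2 and KO2 and 1 to 2 with 1 array left out. S phase genes numbered 6 without WT2 and KO2 and 0 to 1 with 1 array left out, and G2/M genes 1 with array weights, 11 without WT2 and KO2 and 0 to 7 (without KO2) with 1 array left out. Over these 15 counts and all alternatives, 226 values stayed within 1.5 times the main count, 43 were lower and 16 higher.

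Same-numbered arrays did not deviate together (r = -0.13, -0.37 and -0.13 across genes). Differently numbered arrays ranged from -0.45 (WT3 with KO1) to 0.44 (WT3 with KO2). With 3 arrays in each group these values cannot exclude that the numbers pair arrays. Scaling moved the split of study calls from 398 higher and 434 lower to 324 and 532 with median normalization (median of all genes -0.09) and to 362 and 523 with quantile normalization. A second-highest row could not be tried, since each measured gene has 1 row. The causes of these shifts were not tested.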
